A study of Mus musculus with 2 samples.

Results

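The Nkx6.1 binding sites around 4 genes that encode core transcription factors of the pancreatic beta cell, Nkx6-1, Pdx1, Mafa and Neurod1, were examined in mouse islets. The sites are peaks of a chromatin immunoprecipitation (ChIP-seq) experiment, that is, stretches of DNA at which more sequenced fragments (tags) came down with the Nkx6.1 antibody than in input chromatin, which saw no antibody. A peak was taken when its centre lay in a window of 210 kb that reaches about 100 kb to each side of the gene, by position alone. In the mm9 mouse genome build the windows run, in Mb, from 101.99 to 102.2 on chromosome 5 for Nkx6-1, from 147.98 to 148.19 on chromosome 5 for Pdx1, from 75.47 to 75.68 on chromosome 15 for Mafa and from 79.19 to 79.4 on chromosome 2 for Neurod1. They held 30 of the 15239 listed peaks, namely 13 at Nkx6-1, 3 at Pdx1, 4 at Mafa and 10 at Neurod1, and no window was empty. Windows were not cut at other genes, so a peak is described by its window and is not assigned to a gene.

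The study comprised 1 Nkx6.1 ChIP library from pancreatic islets of C57Bl/6 background and 1 input library from islets, both prepared from a single set of islets of a mouse. The labels call both libraries normal and give no treatment, age or genetic change. The ChIP library held 202780986 tags, of which 0.827% lay in the listed peaks. There is no replicate of either library, so no difference below has a replicate check, and every interval covers counting error only. Islets hold alpha, delta and other cells beside beta cells, and in this bulk chromatin a site bound in more cells cannot be told apart from a site bound more often in each cell. The peak list has no expression values, so the labelled tissue was not checked against cell type markers.

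Nkx6.1 and Pdx1 are homeodomain factors, which contact DNA through a domain that prefers AT-rich sites with a TAAT core. Nkx6.1 is needed for beta cells to form and to keep their identity, and Pdx1 is needed for the pancreas itself and for insulin gene transcription in the adult. MafA, a basic leucine zipper factor, activates the insulin genes in mature beta cells, and Neurod1, a basic helix-loop-helix factor, drives endocrine differentiation and binds E-boxes, sites of the form CANNTG. The genes of these factors are known to be regulated in part by one another's products.

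To show what the start of these genes looks like as sequence, the 250 bases before the transcription start are printed for the members found in the RefSeq promoter table, which matched 3 of the 4 genes. They belong to build GRCm38.p6, not to the mm9 build of the peaks, and no peak was placed on them. Capitals mark E-boxes (CANNTG, which reads as CANNTG on both strands).
Nkx6-1 (chr5:101664712-101664961, minus strand): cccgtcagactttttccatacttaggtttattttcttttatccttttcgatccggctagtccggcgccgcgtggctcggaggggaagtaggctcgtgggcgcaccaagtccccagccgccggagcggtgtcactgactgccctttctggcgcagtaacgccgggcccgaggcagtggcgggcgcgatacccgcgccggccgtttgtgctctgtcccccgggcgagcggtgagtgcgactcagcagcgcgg
Pdx1 (chr5:147269847-147270096, plus strand): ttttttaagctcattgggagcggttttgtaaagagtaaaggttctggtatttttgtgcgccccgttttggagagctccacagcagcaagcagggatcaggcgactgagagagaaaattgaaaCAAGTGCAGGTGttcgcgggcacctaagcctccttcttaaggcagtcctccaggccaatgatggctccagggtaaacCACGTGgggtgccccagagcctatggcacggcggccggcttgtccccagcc
Neurod1 (chr2:79456637-79456886, minus strand): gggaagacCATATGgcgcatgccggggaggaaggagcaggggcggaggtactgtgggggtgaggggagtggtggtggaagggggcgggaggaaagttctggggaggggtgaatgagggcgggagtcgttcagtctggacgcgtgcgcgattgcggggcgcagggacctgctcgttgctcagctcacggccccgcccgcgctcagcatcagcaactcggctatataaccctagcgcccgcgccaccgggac

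The Pdx1 stretch held 3 E-boxes, of which 2 are adjacent, the Neurod1 stretch held 1 and the Nkx6-1 stretch held 0. Of 32851 mouse promoters of this length in the table, 66.2% held an E-box. The letters TAAT, searched on both strands, occurred 0 times in each of the 3 stretches, while 54.9% of all promoters held them. The 3 stretches had a G and C content of 65.2%, 54.8% and 67.6%, in the order printed, against a median of 52.4% over all promoters. Among the 13863 promoters with at least 54.8% G and C the share with TAAT was 26.0%, and the part of base composition was not tested. The absence of these letters says only that they are not in these 3 stretches.

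Of the 4 windows, that of the factor's own gene, Nkx6-1, had the most peaks and the highest median of the deposited folds. Most of these folds are lower limits in each of the 4 windows, also at Neurod1 (6 of 10), so the order of the medians is that of the deposited values. The Nkx6-1 window held 13 peaks with a median fold over input of 10.7 (5.81 to 26.4), against a median of 5.63 over the whole list. The fold over input is the deposited ratio of ChIP to input tags. Of the 13 peaks, 10 reached 8-fold, 2 times the 4-fold that the peak caller asked for, and 24.1% of all listed peaks did so. Input was too low to be counted at 11 of the 13 peaks and was set by the caller to a minimum of 21.4 tags, so that these folds are lower limits.

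The peaks of the Nkx6-1 window lay mostly to one side. With the window's middle at 102.095 Mb, near which the gene lies, 11 peaks had lower coordinates and 2 had higher ones. In the RefSeq table of GRCm38.p6, which gives only the order of genes here, Nkx6-1 is on the minus strand, its nearest coding neighbours on the side of lower coordinates are Gpat3, Abraxas1 and Mrps18c, and those on the other side are Gm42134, Cds1 and Wdfy3. The strongest peak of all 4 windows, at chr5:102032404-102032536, lay 62.5 kb below the middle and held 718 ChIP tags (95% Poisson interval 666 to 772) over input at the minimum, a fold of at least 26.4. It ranked 179 in the list by the caller's score. Of all listed peaks 0.932% had a fold as high or higher.

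Other close sets of peaks lay to either side of it. Farther from the middle, 2 peaks whose centres were 0.426 kb apart lay at chr5:102019607-102019739 and chr5:102020033-102020165, with 543 (498 to 591) and 538 (493 to 585) ChIP tags. Their folds of at least 19.98 and at least 19.8 rest on ChIP tags whose intervals overlapped. Another pair, 0.283 kb apart, had 490 tags (448 to 535) at chr5:102008557-102008689 and 462 tags (421 to 506) at chr5:102008840-102008972. These peaks had nearly the same ChIP tags but different input: the first had 38 input tags counted and a fold of 10.2 (exact conditional interval 7.30 to 14.5), while the second stood at the input minimum with a fold of at least 17. The outermost peak, at chr5:102000571-102000703, was weaker, with 224 tags (196 to 255) and a fold of at least 8.24.

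Closer to the middle, a group of 3 peaks spanned 1.6 kb from 20.6 to 19.0 kb below the middle. It held 386 tags (348 to 426) at chr5:102074339-102074471, 421 tags (382 to 463) at chr5:102074693-102074825 and 274 tags (243 to 308) at chr5:102075938-102076070. The folds were at least 14.2, at least 15.5 and at least 10.1, and the third peak had fewer tags than both others beyond counting error. The peaks nearest the middle held fewer tags still. The peak 8.0 kb below it, at chr5:102086941-102087073, had 232 ChIP tags (203 to 264), an interval that overlapped that of the third peak. It had 30 input tags and a fold of 6.1 (4.16 to 9.24). The peak 0.8 kb below the middle, at chr5:102094177-102094309, had 202 tags (175 to 232) and a fold of at least 7.43. On the other side, the peak at chr5:102161743-102161875, 66.8 kb above the middle, had 290 tags (258 to 325) and a fold of at least 10.7. The remaining peak, given to complete the set although the naming rule left it out as the lowest by score, had 158 tags (134 to 185) and a fold of at least 5.81 at 34.7 kb above the middle.

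**Figure D1:**
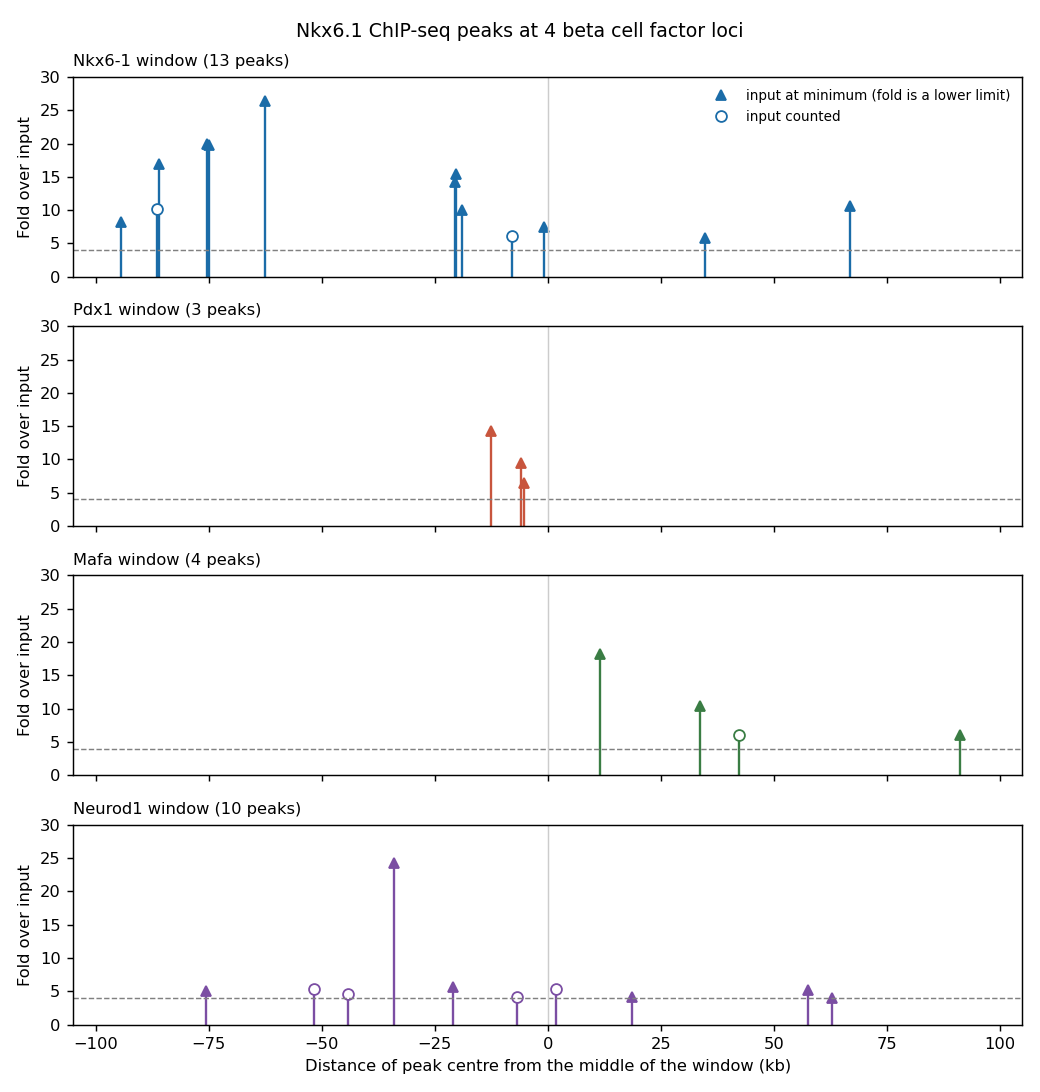
Each panel is 1 window, with the distance of each peak's centre from the window's middle in kb on the x axis and the deposited fold over input on the y axis; triangles are peaks whose input stood at the minimum, so that the fold is a lower limit, open circles are peaks with counted input, and the dashed line is the caller's 4-fold threshold. The 13 Nkx6-1 peaks lie mainly below the middle, the 3 Pdx1 peaks lie within 12.5 kb of it, the 4 Mafa peaks lie above it, and 1 of the 10 Neurod1 peaks stands far above the rest.

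At Pdx1 the 3 listed peaks lay together, 5.3 to 12.5 kb from the window's middle. They spanned 7.23 kb, all on the side of lower coordinates, and the remaining window out to both edges had no listed peak. The strongest, 12.5 kb below the middle at chr5:148072386-148072518, had 386 ChIP tags (348 to 426) and a fold of at least 14.2. A pair 0.62 kb apart followed nearer the middle. Its members had 258 tags (227 to 291) at chr5:148078992-148079124 and 176 tags (151 to 204) at chr5:148079612-148079744, with folds of at least 9.49 and at least 6.48. ChIP tags thus declined from peak to peak toward the middle, and the 3 intervals did not overlap. Input stood at the minimum at all 3. Pdx1 is on the plus strand in GRCm38.p6, where its coding neighbours are Gsx1, Polr1d and Lnx2 on the lower side and Cdx2, Urad and Flt3 on the higher side. Gsx1 and Cdx2 are homeobox genes too.

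At Mafa all 4 peaks had higher coordinates than the window's middle. The strongest was the nearest to it, 11.6 kb away at chr15:75586580-75586712, with 493 ChIP tags (450 to 539) and a fold of at least 18.1. The next, 33.7 kb away at chr15:75608654-75608786, had 282 tags (250 to 317) and a fold of at least 10.4. The peak at chr15:75617338-75617470 had 209 ChIP and 27 input tags and a fold of 6.1 (4.08 to 9.48), and the farthest, at chr15:75665995-75666127, had 164 tags (140 to 191) and a fold of at least 6.04. ChIP tags fell with each step away from the middle, but the intervals of the last 2 peaks overlapped. In GRCm38.p6 the coding gene next to Mafa on this side is Zc3h3, followed by Gsdmd and Mroh6, and Rhpn1, Top1mt and Zfp41 are on the other side.

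Neurod1 combined a high number of peaks with low deposited folds. Its 10 peaks had a median fold of 5.10 (4.05 to 24.3), a little under the 5.63 of the whole list. The exception was chr2:79260830-79260962, 34.1 kb below the middle, with 660 ChIP tags (611 to 712), input at the minimum and a fold of at least 24.3. It ranked 242 by score, and 1.20% of listed peaks had a fold as high or higher. It was the 1 peak of the window to reach 8-fold, and its fold over the surrounding 10000 bp, 34.5, was the highest in the 4 windows.

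The other 9 Neurod1 peaks had 110 to 252 ChIP tags and folds of 4.05 to 5.59. Input was counted at 4 of them, with 25 to 37 tags, and the folds of the other 5 are lower limits. The peak at chr2:79243233-79243365 had 252 ChIP tags (222 to 285), with input at 37 tags and a fold of 5.37 (3.79 to 7.80). At chr2:79250812-79250944 there were 181 tags over 31, or 4.60-fold (3.13 to 6.97). A further pair flanked the middle of the window. The one 6.8 kb below it, at chr2:79288130-79288262, had 151 over 29 tags and a fold of 4.10 (2.75 to 6.34). The one 1.9 kb above it, at chr2:79296812-79296944, had 171 over 25 tags and a fold of 5.39 (3.53 to 8.57). The fold intervals of all 4 overlapped and reached below 4-fold. Counting error thus did not separate their folds from one another or from the threshold. In ChIP tags, the interval of the peak with 252 tags (222 to 285) lay above those of the others (156 to 209, 128 to 177 and 146 to 199). The other 5, with input at the minimum, were at chr2:79219235-79219367 with 137 tags (115 to 162), at chr2:79273989-79274121 with 152 (129 to 178), at chr2:79313650-79313782 with 111 (91 to 134), at chr2:79352483-79352615 with 140 (118 to 165) and at chr2:79357722-79357854 with 110 (90 to 133). The list begins at 109 tags, so the weakest of these were at its lower end. The coding neighbours of Neurod1 in GRCm38.p6 are Cerkl, Itga4 and Ube2e3 on the lower side and Itprid2, Ppp1r1c and Pde1a on the higher side.

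Over the 4 windows together, 15 of 30 peaks reached 8-fold over input (24.1% of the list) and 2 reached 20-fold (2.32% of the list). At 5-fold they were 26 of 30 (64.5% of the list) and at 10-fold 13 of 30 (14.4% of the list). Input was counted at 7 of the 30 peaks, and at 32.9% of the list. The 8-fold peaks were 10 of 13 at Nkx6-1, 2 of 3 at Pdx1, 2 of 4 at Mafa and 1 of 10 at Neurod1. The median fold over the 30 peaks was 7.83, and 21 of them were at or above the median of the list. The strongest peaks of the windows ranked Nkx6-1, Neurod1, Mafa, Pdx1 by ChIP tags. The intervals of the first 2 overlapped (666 to 772 and 611 to 712), while those of Mafa (450 to 539) and Pdx1 (348 to 426) overlapped neither these nor each other. The deposited Poisson p over input was at most 7.7e-26 in the 30 peaks, and at most 3.1e-25 in the whole list. It was written as 0 for 5 of the 30 and for 563 of the 15239 listed peaks. This p compares these 2 libraries, not mice.

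**Figure D2:**
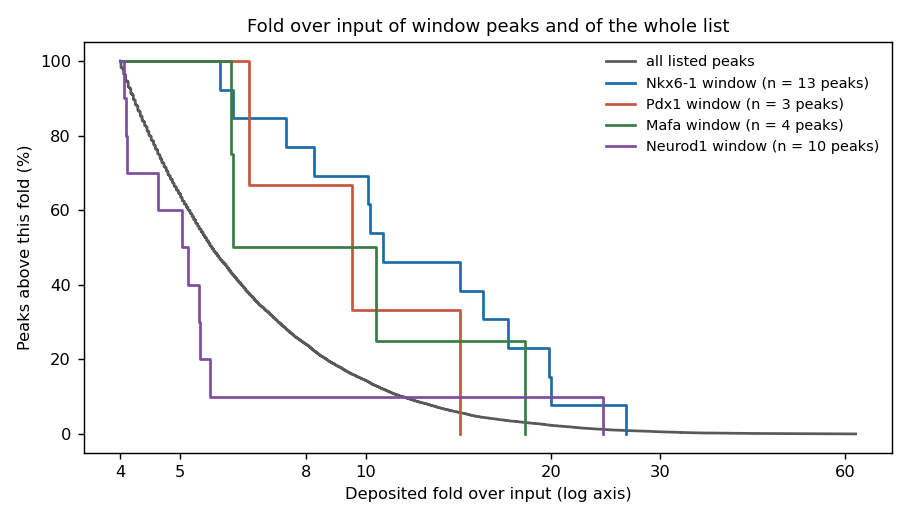
The share of peaks above a given fold (y axis, percent) is plotted against the deposited fold over input (x axis, log scale) for the whole list of 15239 peaks and for each window. The Nkx6-1 curve lies to the right of the list up to its highest peak of 26.4, and the Neurod1 curve lies to the left of it except for the single peak at 24.3.

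The number of peaks was set beside that of every back-to-back window of 210 kb on the autosomes, which follow no gene. These 11395 windows held a median of 1 peak and at most 16, while 56.3% held at least 1. The 13 peaks at Nkx6-1 were matched or passed by 0.0263% of them (3 windows) and the 10 at Neurod1 by 0.149% (17 windows). The 4 peaks at Mafa were matched or passed by 10.8% and the 3 at Pdx1 by 19.4%. None of these windows held as many as 10 peaks at 8-fold or more (0%; highest 7), as the Nkx6-1 window did, but the grid cuts the Nkx6-1 peaks into sets of 6 and 7. At least 2 such peaks, as at Pdx1 and Mafa, were found in 6.01% of the windows, and at least 1, as at Neurod1, in 23.8%. A peak of 20-fold or more, as in the Nkx6-1 and Neurod1 windows, was present in 3.02%. The 4 windows were placed on genes and the others were not, so these shares describe the list and do not test the loci.

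**Figure D3:**
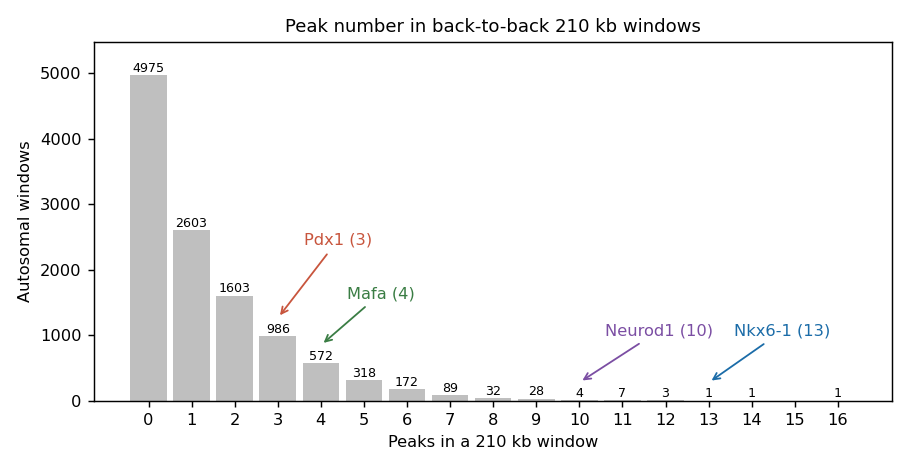
Bars give the number of autosomal windows of 210 kb (y axis) that held each number of peaks (x axis), with the count printed above each bar, and arrows mark the 4 gene windows. Pdx1 with 3 and Mafa with 4 peaks fall among the commonly filled windows, while Neurod1 with 10 and Nkx6-1 with 13 lie in the thin upper end.

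Peaks of these windows often had a close neighbour. Another listed peak lay within 10 kb of 21 of the 30, against 28.1% of all nuclear peaks (those outside the mitochondrial genome). They were 10 of 13 at Nkx6-1, 3 of 3 at Pdx1, 2 of 4 at Mafa and 6 of 10 at Neurod1. Neighbours under 1 kb away were present for 8 of the 30, with 6.88% in the list, and these formed 3 pairs at Nkx6-1 and 1 at Pdx1. Windows with many peaks hold close neighbours more readily, so the 2 counts are not independent of the number of peaks. The closest groups at Neurod1 were pairs 5.24 to 8.68 kb apart, and their folds were 4.05 to 5.39.

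The fold over the surrounding 10000 bp, also deposited, was low at Nkx6-1 for the tags its peaks held. Over the list it rises with ChIP tags, from a median of 8.46 in peaks with 100 to 200 tags to 18.2 with 300 to 400 and 30.1 with 500 to 800. At Nkx6-1, 11 of 13 peaks were below the median of the listed peaks with like ChIP tags. The peak with 386 tags stood 9.91-fold above its surroundings at Nkx6-1 and the peak with 386 tags at Pdx1 stood 20.03-fold. Input stood at the minimum at both, so their equal fold over input, at least 14.2, follows from the equal tags alone. The Nkx6-1 peak has 2 other listed peaks within 2 kb, and the Pdx1 peak has its nearest listed peak 6606 bp away. At Mafa 3 of 4, at Pdx1 2 of 3 and at Neurod1 7 of 10 peaks were below the median of their class. The focus ratio, the deposited fraction of tags that sit on the proper side of the centre for their strand, was below the median of the class at 11 of 13 Nkx6-1 peaks and ran from 0.605 to 0.897 there. It was below the class median at 2 of 3 Pdx1, 2 of 4 Mafa and 6 of 10 Neurod1 peaks. The lowest focus ratio of the 30, 0.576, belonged to the Neurod1 peak 1.9 kb above the middle. The part that neighbouring peaks play in these 2 measures was not tested.

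**Figure D4:**
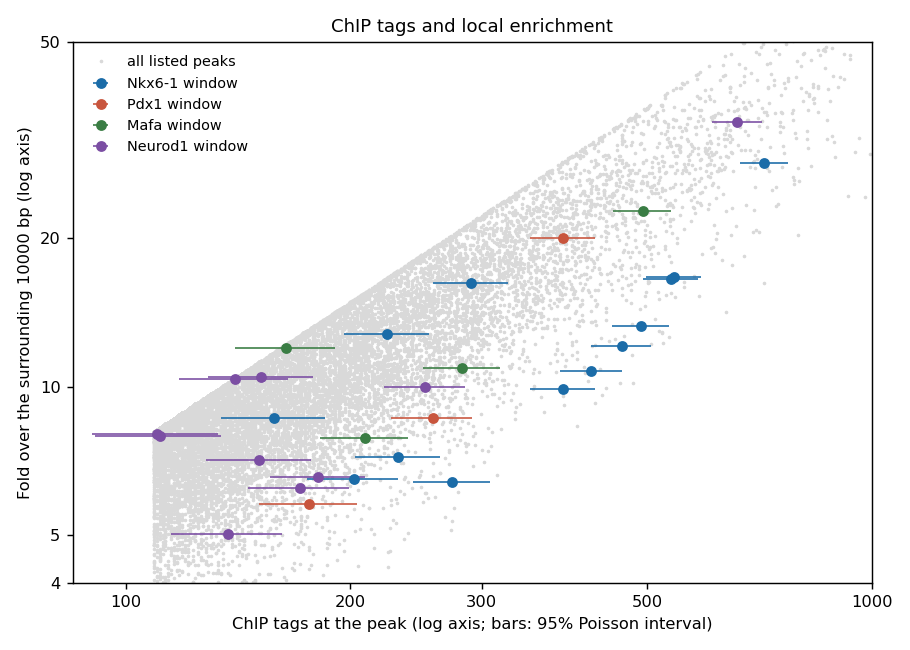
ChIP tags at each peak (x axis, log scale, with 95% Poisson intervals) are plotted against the fold over the surrounding 10000 bp (y axis, log scale) for the 30 window peaks, over the listed peaks in grey; listed peaks beyond 1000 tags or 50-fold are outside the axes. Most Nkx6-1 peaks lie in the lower part of the grey cloud, such as the one with 386 tags at 9.91-fold, while the strongest Neurod1 peak, at 34.5-fold, lies within it.

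The nearest listed peaks outside the windows lay 45.0 to 369.4 kb from the window edges. Input stood at the minimum at every peak given in this paragraph, so all its folds are lower limits. The listed peaks just outside the Nkx6-1 window lay 63.3 kb below it with a fold of 5.48 and 369.4 kb above it with 16.8, and those just inside lay 10.6 kb from the lower edge with 8.24 and 38.2 kb from the upper edge with 10.7. At Pdx1 the nearest outside peaks were 91.7 kb below with 5.59-fold and 51.7 kb above with 4.08-fold. At Mafa a peak with more ChIP tags than any inside lay 79.3 kb below the window, with 544 tags and 20.02-fold. The strongest peak inside had 493 tags (450 to 539). That interval overlaps the 498 to 591 of the Nkx6-1 peak with 543 tags, so counting error does not separate 544 from 493. The nearest peak above the Mafa window was 45.0 kb away with 5.15-fold. At Neurod1 they lay 78.4 kb below with 8.32-fold and 86.7 kb above with 6.37-fold.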

How the data were processed

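Nkx6.1 ChIP and input libraries of mouse islets, 1 each, were analysed from 1 deposited peak list. Peaks were called with HOMER findPeaks (factor style, false discovery rate 0.001, ChIP fragment length 80 bp, 133 bp peaks, 4-fold over input and over the local 10000 bp), per the file headers. Bowtie and mm9 are named in the submitters' processing notes, with their versions not given in the sources used here. The deposited signal columns hold ChIP tags scaled to the input library, which were divided by their step of 0.788 to give whole tags (within 0.1 tag for 100% of peaks), and input tags with a minimum of 21.4. The fold over input, the fold over the surrounding region and the clonal fold are ratios deposited by the authors, as are the peak score, the focus ratio (a fraction) and the Poisson p-value. Recomputing the fold from its columns changed it by at most 0.221%.

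Peaks were placed in windows by their centre. ChIP tags carry exact Poisson intervals, and folds with counted input carry exact conditional binomial intervals, both at 95%. The method of the binomial intervals was checked on simulated data. Those data passed through neither the caller's 4-fold threshold nor its input minimum, so coverage after these cuts was not tested. Named peaks were all those of a window with 12 or fewer and the 12 highest by score otherwise. Members and lists were chosen with earlier results of these data known. Other beta cell regulators were not counted, as no mm9 annotation was used here. Tools were Python 3.11.15 with scipy 1.17.1, matplotlib 3.10.9, numpy 2.4.6 and pandas 2.3.3. Other window widths, fold and score thresholds, joining, a pseudocount of 1 tag and other neighbour distances were tried.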

Additional observations from a re-analysis of the deposited data

How the results depend on the processing

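The number of peaks depended most on the threshold at Neurod1, where 10 peaks became 6 at 5-fold, 1 at 8-fold and 4 among peaks scoring above the median. At Mafa 4 peaks became 2 at 8-fold. With windows 0.5 times as wide Nkx6-1 kept 6 of its 13 peaks and Neurod1 kept 7 of its 10. With windows 2 times as wide Pdx1 had 5 peaks and Mafa 7. All other numbers of peaks per window stayed within 1.5 times the reported one, also with peaks under 1 kb apart joined. Joining left 10 sites at Nkx6-1, 10 at Neurod1 and 2 at Pdx1. Adding 1 tag to ChIP and input kept all 30 folds inside the interval given by their ChIP tags alone. Input was at least 21.4 tags, so 1 added tag could hardly have moved a fold out of that interval. The fold over the local 10000 bp lay outside that interval, which leaves out the counting error of input, for 24 of 30 peaks, and with it the median became 12.1 at Nkx6-1, 11.4 at Mafa and 7.97 at Neurod1. Of the 30 peaks 26 reached 5-fold in place of the 15 that reached 8-fold, and 13 reached 10-fold. A neighbour lay within 5 kb of 9 peaks, against 18.4% of nuclear peaks, and within 25 kb of 27, against 48.4%. Within 5 kb they were 7 at Nkx6-1, 2 at Pdx1, 0 at Mafa and 0 at Neurod1, so the close neighbours counted at Mafa and Neurod1 all lay beyond 5 kb. Within 25 kb all 10 Neurod1 peaks had one. At Pdx1 the 2 peaks of 8-fold became 1 at 10-fold, and at Mafa and Neurod1 the counts at 8-fold became 4 and 6 at 5-fold. Shifting the grid of back-to-back windows by 0.5 of a window was an alternative chosen after seeing the data. It gave 0.0176% of windows with 13 or more peaks and 0.246% with 10 or more. The most peaks of 8-fold or more in a window became 9 in place of 7. Only 1 shifted window held 8 or more such peaks, and it lies over the Nkx6-1 peaks themselves, so it is not another locus. No paired analysis was possible because the ChIP and input groups hold 1 library apiece. Input at the minimum for 23 of 30 peaks limits their folds to lower limits, and the list starts at 109 ChIP tags.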

Other observations

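The clonal fold is a deposited ratio that, per the file headers, measures how far the number of unique tag positions lies under the expected one. It was 0.75 or less at 12 of the 30 peaks, against 15.9% of nuclear peaks in the list. These were 8 of 13 at Nkx6-1, 2 of 3 at Pdx1, 1 of 4 at Mafa and 1 of 10 at Neurod1. The lowest, 0.57, was at the Nkx6-1 peak with 543 ChIP tags, and the highest, 1.01, was at the Neurod1 peak with 181 ChIP and 31 input tags. Over the list this ratio falls as ChIP tags rise, from a median of 0.89 in peaks with 100 to 200 tags to 0.69 in peaks with 500 to 800. The 7 peaks with counted input had clonal folds of 0.76 to 1.01.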
